A study of Mus musculus with 13 samples.

Results

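A list of 50 genes that handle foreign compounds in the mouse gut, chosen by symbol, was followed across enterocytes of 6 genotypes. The list was drawn up with earlier results of these data known. Its counts, given below beside the shares of all genes, are therefore a description and not an independent test. Of the 50, 48 had a probe set annotated to that symbol alone among 35556 probe sets. Por and Ces2c had none and were not analysed here. The 48 genes were measured among 19938 genes with a probe set of their own, and all 48 were among the 16721 genes bright enough to be tested. The mice carried a knockout of casein kinase Iα (CKIα, gene Csnk1a1) restricted to the gut, in the heterozygous state (CKIα Het) or as a homozygous loss (CKIα KO). Each state was examined with p53 and p21 intact, with p21 knocked out (CKIα Het/p21 KO and CKIα KO/p21 KO) and with p53 knocked out (CKIα Het/p53 KO and CKIα KO/p53 KO). CKIα helps to mark β-catenin for degradation, p53 is a tumour suppressor, and p21 is a cell cycle inhibitor that p53 activates. All mice were labelled as 129/SVJ, each group had 2 arrays that the labels call biological replicates, and every control carried the heterozygous knockout, so that no group was without a CKIα knockout allele. The driver of the gut knockout, the segment of gut and the age of the mice are not given in the sources used here. The labels do not say whether an array held 1 mouse or several.

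The gut epithelium is a first barrier to drugs, dietary toxins and carcinogens. Sensor receptors, chiefly the pregnane X receptor (Nr1i2), the constitutive androstane receptor (Nr1i3) and the aryl hydrocarbon receptor (Ahr), bind foreign compounds and switch on the enzymes. Cytochrome P450 enzymes and other oxidoreductases add or expose chemical groups on the compounds, esterases split esters, and epoxide hydrolases turn reactive epoxides into diols. Transferases attach glutathione, sulfate, glucuronic acid or acetyl groups, and ABC transporters pump the products out of the cell. Most of these enzymes are known to be abundant in mature cells of the villus.

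Values below are log2 intensities as deposited, and a difference of 1 between arrays is a 2-fold difference in signal. Array medians lay between 4.96 and 5.12, and the 48 genes lay between 3.28 (Ces1d) and 12.51 (Cyp2c66). Where levels are listed below, the arrays of CKIα Het and then those of CKIα KO are given first with p53 and p21 present, then with p21 knocked out, then with p53 knocked out. A level of a gene was never set against that of another, since probe sets differ in brightness. The targeted gene Csnk1a1 did not tell the genotypes apart, at 10.44 to 10.78 on the 6 CKIα Het arrays and 10.55 to 10.80 on the 6 CKIα KO arrays. Whether its probe set lies in the deleted part is not given in the sources used here, so that the CKIα genotypes rest on the labels. Neither Trp53 nor Cdkn1a, the genes of p53 and p21, had a probe set of its own. In 1 group the replicates differed widely for these genes: on CKIα KO/p21 KO replicate 2, 23 of 48 were over 2-fold lower than on replicate 1 and 0 were over 2-fold higher, while 3.11% of all 16721 genes were over 2-fold lower there. In the other groups between 0 and 6 of the 48 were over 2-fold lower on replicate 2. A further array carries a title of CKIα KO/p53 KO with the number 3, yet p53 is missing from its genotype label, and it was left out of every comparison. The epithelial markers Epcam, Cdh1, Krt8, Krt18, Krt19 and Cldn7 had a mean between 11.07 and 11.76 on the 12 arrays, and the 23 absorptive enterocyte markers one between 10.60 and 12.13, with 0 markers under the 25th percentile on any array. In bulk tissue RNA, fewer cells of a type and less RNA per cell cannot be told apart.

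**Figure D1:**
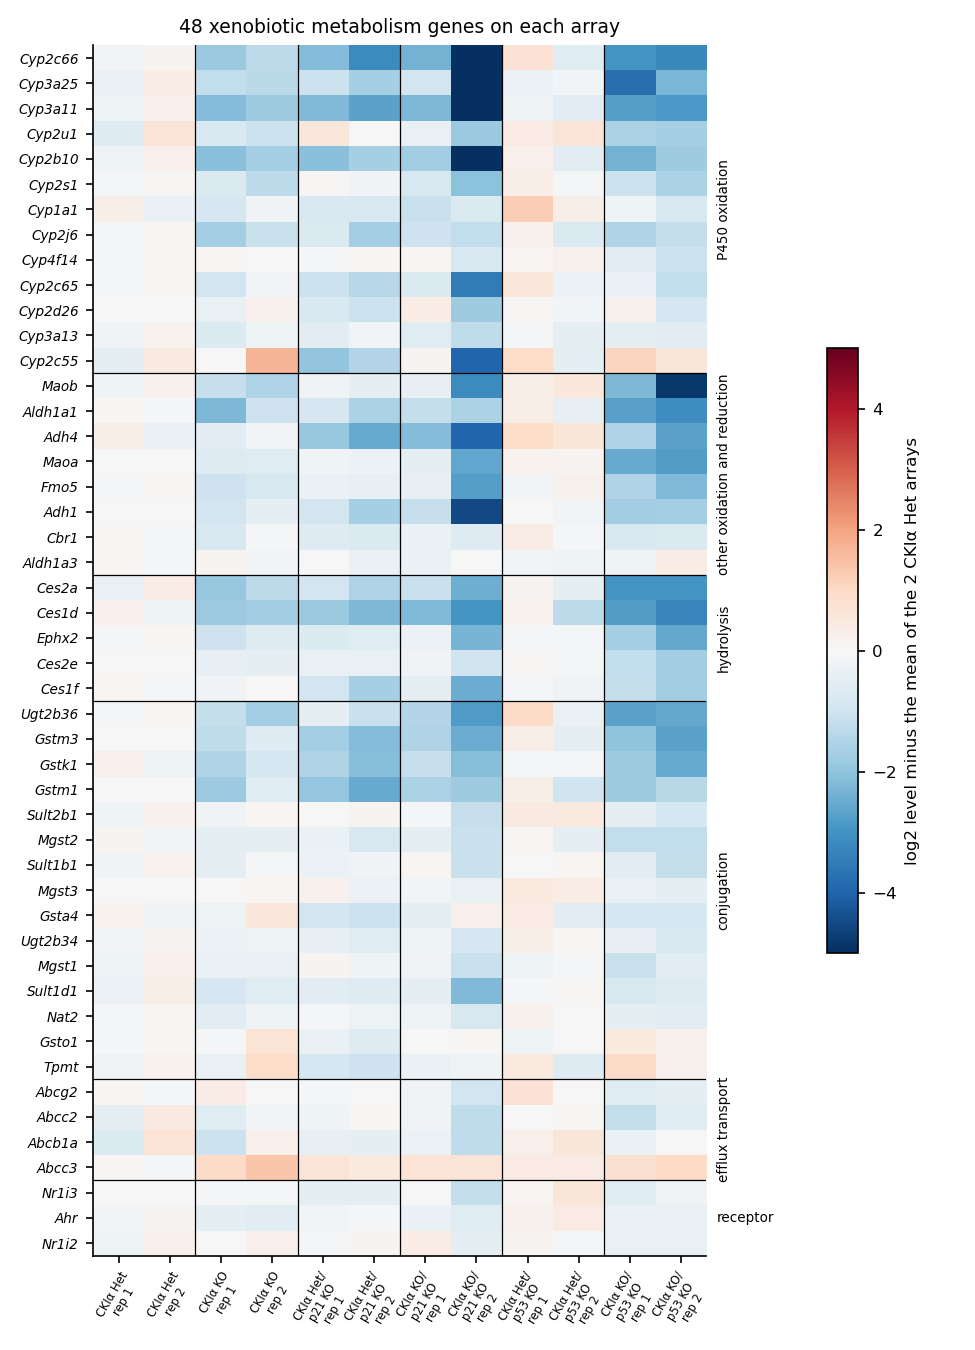
Log2 level of each of the 48 genes on each of the 12 arrays, as the difference from the mean of the 2 CKIα Het arrays (blue lower, red higher, colour limits at -5 and 5), with genes grouped by role and the groups separated by lines. Blue fills most of the CKIα KO/p53 KO columns and most of the CKIα KO/p21 KO replicate 2 column, where 23 genes were over 2-fold below replicate 1. Cyp2c55, Gsto1 and Tpmt are above 0 in both CKIα KO/p53 KO columns, and Abcc3 is red outside the CKIα Het columns.

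Loss of CKIα without p53 lowered many of these genes and raised none of them. Among the 48, 23 fell and 0 rose in CKIα KO/p53 KO against CKIα Het/p53 KO (limma, adjusted p under 0.05 over all 16721 genes), where 6.82% of all genes tested fell and 11% rose. At an unadjusted p under 0.05, 34 were lower and 1 was higher (16% and 18.5% of all genes). Monoamine oxidase Maob fell 15.7-fold, Cyp2c66 8.92-fold, the glucuronosyltransferase Ugt2b36 7.63-fold and the retinal dehydrogenase Aldh1a1 7.29-fold. Ugt2b36 was at 3.72 and 3.83 in CKIα KO/p53 KO, near the 25th percentile of the arrays (3.59 to 3.73). The size of its fall is therefore uncertain. The median log2 fold change was -1.08 over the 48 genes and -0.06 over all genes tested. Both CKIα KO/p53 KO arrays lay below both CKIα Het/p53 KO arrays for 41 of the 48 genes, a pattern of 35.7% of all genes, and above both for 2, a pattern of 28.9% of all genes. By role, the genes that fell were 5 of 13 P450 enzymes, 5 of 8 other oxidoreductases, 4 of 5 hydrolases, 7 of 15 conjugating enzymes, 1 of 4 transporters and 1 of 3 receptors. The p-values rest on 2 arrays a group and on a spread pooled over the 6 groups, and the number called depended on single arrays. It was smaller without any single array of CKIα Het/p53 KO or CKIα KO/p53 KO and larger without either CKIα KO/p21 KO array. The share of all genes called in those fits is not given here, so these shifts cannot be read as particular to the 48 genes. All 23 kept a negative value in each of the 19 other settings.

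Of the 3 sensors, Ahr passed without p53 and the nuclear receptors did not. Ahr, the receptor for dioxin-like and dietary indole compounds, read 7.27 and 7.53 against 6.90 and 6.84, then 7.28 and 7.32 against 7.08 and 6.77 with p21 knocked out, and 7.62 and 7.81 against 7.01 and 7.02 with p53 knocked out. It fell 1.63-fold without p53 (log2 fold change -0.70 ± 0.15, SE, n = 2 per group, limma adjusted p = 0.0160), and all 6 CKIα KO arrays lay below all 6 CKIα Het arrays. Nr1i2, the pregnane X receptor, read 9.26 and 9.73 against 9.51 and 9.74, then 9.45 and 9.63 against 9.86 and 9.03 with p21 knocked out, and 9.61 and 9.45 against 9.13 and 9.14 with p53 knocked out. Its groups overlapped except without p53, where the difference of -0.40 ± 0.26 did not pass (adjusted p = 0.296). Nr1i3, the constitutive androstane receptor, read 8.61 and 8.64 against 8.55 and 8.53, then 8.16 and 8.17 against 8.62 and 7.45 with p21 knocked out, and 8.71 and 9.24 against 8.01 and 8.45 with p53 knocked out. Its lowest array was CKIα KO/p21 KO replicate 2, and without p53 its difference was -0.75 ± 0.33 (adjusted p = 0.138).

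Of the 13 P450 enzymes 5 fell without p53, while Cyp3a11, Cyp3a25 and Cyp2b10 did not pass. Cyp3a11, a main drug-oxidizing P450 of the mouse gut and a target of the pregnane X receptor, read 11.26 and 11.74 against 9.33 and 9.74, then 9.31 and 8.84 against 9.27 and 4.13 with p21 knocked out, and 11.25 and 10.92 against 8.73 and 8.64 with p53 knocked out. It was high on the 4 CKIα Het and CKIα Het/p53 KO arrays and lower on the 8 remaining ones, with its lowest value on CKIα KO/p21 KO replicate 2. The difference without p53, -2.40 ± 1.18, did not pass (adjusted p = 0.180), and its error includes the spread within CKIα KO/p21 KO. Cyp3a25, a member of the same subfamily, read 11.49 and 12.25 against 10.66 and 10.51, then 10.81 and 10.23 against 10.94 and 6.67 with p21 knocked out, and 11.57 and 11.75 against 8.11 and 9.59 with p53 knocked out, and was at -2.81 ± 1.05 without p53 (adjusted p = 0.0899). Cyp2b10, a target of the constitutive androstane receptor, read 11.23 and 11.78 against 9.43 and 9.82, then 9.40 and 9.83 against 9.75 and 5.65 with p21 knocked out, and 11.75 and 10.95 against 9.16 and 9.75 with p53 knocked out, and was at -1.89 ± 0.98 (adjusted p = 0.198). All 3 parted on CKIα KO/p21 KO in the same way, with replicate 2 the lowest of the 12 arrays.

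Cyp2c66, of a subfamily that also oxidizes arachidonic acid, read 11.66 and 11.90 against 9.92 and 10.48, then 9.61 and 8.61 against 9.43 and 5.90 with p21 knocked out, and 12.51 and 11.17 against 8.80 and 8.56 with p53 knocked out. Like Cyp3a11, it was brightest on CKIα Het and CKIα Het/p53 KO arrays, and it fell 8.92-fold without p53 (-3.16 ± 0.90, adjusted p = 0.0394). Its sister genes did not pass without p53. Cyp2c55 had 9.59 and 8.20 in CKIα Het/p53 KO and 9.75 and 9.29 in CKIα KO/p53 KO, and Cyp2c65 had 11.50 and 10.70 and then 10.62 and 9.74. The groups of Cyp2c55 overlapped, while both CKIα KO/p53 KO arrays of Cyp2c65 lay below both CKIα Het/p53 KO arrays. Subfamilies such as Cyp2c, Cyp3a, Ces1, Ces2, Gstm and Ugt2b hold closely related copies whose signals can mix on a probe set, so the values of single copies are uncertain.

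Of the remaining P450 enzymes, 4 fell without p53. Cyp2u1, which hydroxylates fatty acids, read 6.55 and 7.85 against 6.43 and 6.13, then 7.76 and 7.21 against 6.83 and 5.33 with p21 knocked out, and 7.63 and 7.85 against 5.64 and 5.53 with p53 knocked out, and fell 4.45-fold (adjusted p = 0.0185). Cyp2s1, a form found in epithelia, read 8.60 and 8.75 against 7.94 and 7.37, then 8.74 and 8.49 against 7.87 and 6.64 with p21 knocked out, and 9.03 and 8.58 against 7.60 and 7.10 with p53 knocked out, and fell 2.73-fold (adjusted p = 0.0263). In Cyp2s1, but not in Cyp2u1, all 6 CKIα KO arrays lay below all 6 CKIα Het arrays. Cyp1a1, a classic target of Ahr, read 5.26 and 4.58 against 4.06 and 4.76, then 4.15 and 4.17 against 3.82 and 4.19 with p21 knocked out, and 6.17 and 5.23 against 4.72 and 4.13 with p53 knocked out, and fell 2.41-fold (adjusted p = 0.0389). Both CKIα KO/p53 KO levels of Cyp1a1 lay under the array medians (4.96 to 5.12), so the size of its fall is uncertain. Cyp4f14, which inactivates leukotriene B4, read 11.64 and 11.76 against 11.79 and 11.70, then 11.64 and 11.77 against 11.78 and 10.90 with p21 knocked out, and 11.81 and 11.90 against 11.13 and 10.61 with p53 knocked out, and fell 1.98-fold (adjusted p = 0.0303). Cyp4f14 was low on the CKIα KO/p53 KO arrays and on CKIα KO/p21 KO replicate 2 and lay between 11.64 and 11.90 on the others. Cyp2j6, an arachidonic acid epoxygenase, read 9.60 and 9.77 against 7.98 and 8.56, then 8.97 and 7.98 against 8.67 and 8.44 with p21 knocked out, and 9.91 and 8.97 against 8.17 and 8.48 with p53 knocked out, and did not pass without p53 (-1.11 ± 0.37, adjusted p = 0.0617).

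**Figure D2:**
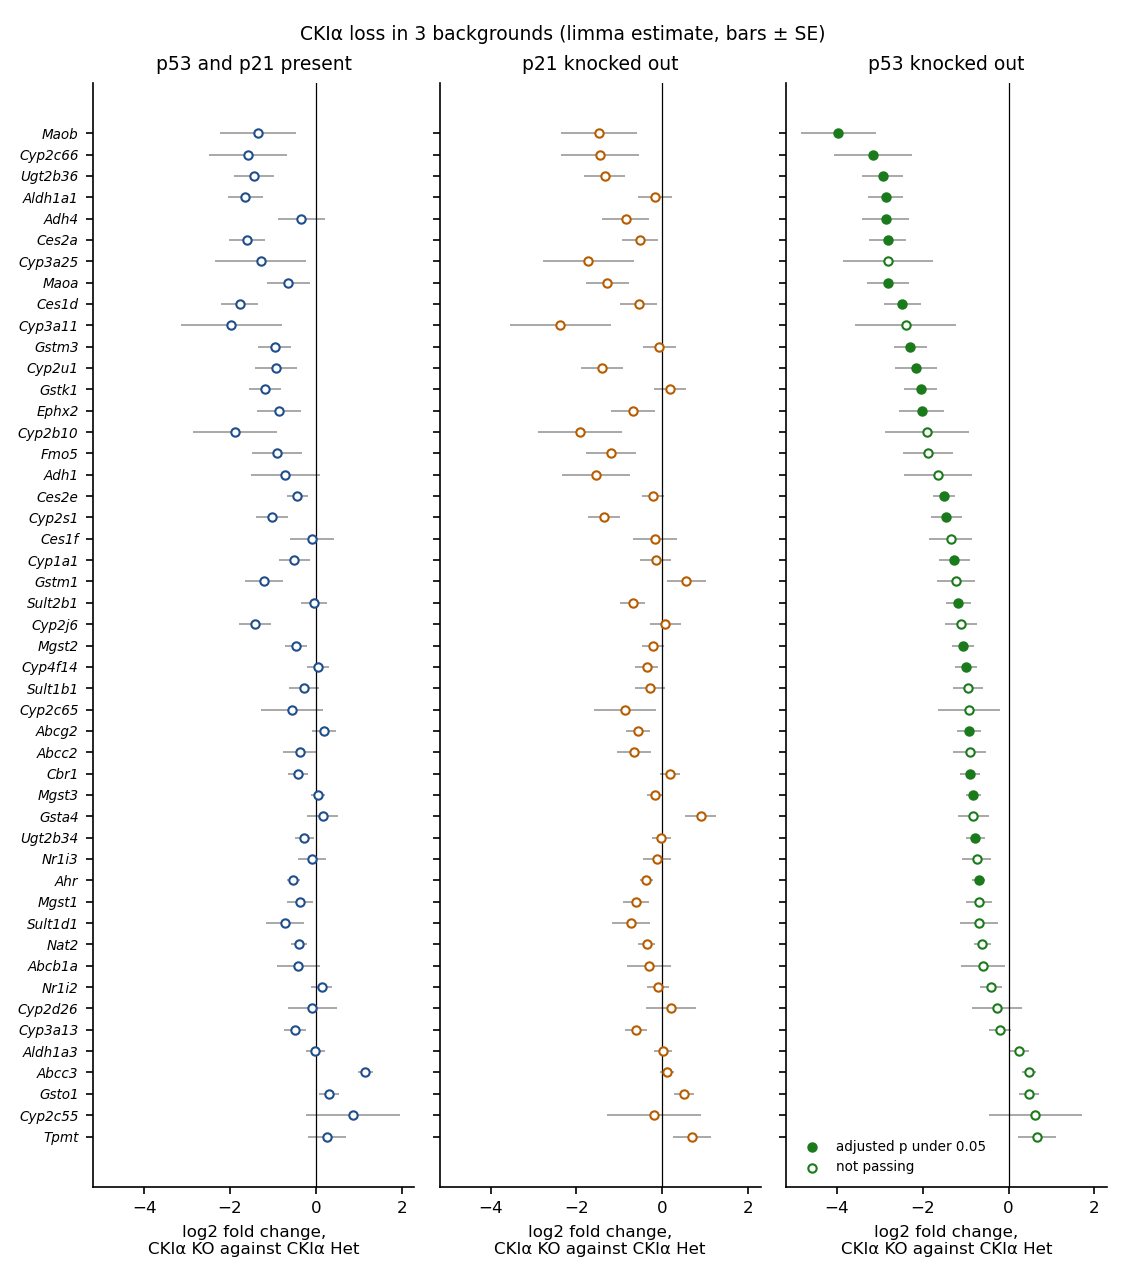
Log2 fold change of CKIα KO against CKIα Het (x axis) for each of the 48 genes (y axis, ordered by the value without p53), with bars of ± SE from the limma fit and filled points for an adjusted p under 0.05. The panel without p53 holds 23 filled points, all below 0, and the other panels hold 0.

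Of the 8 other oxidoreductases 5 fell without p53, among them both monoamine oxidases. Maob and Maoa are the monoamine oxidases of the outer mitochondrial membrane, which break down dietary amines and serotonin. Maob read 10.32 and 10.76 against 9.39 and 8.99, then 10.35 and 10.09 against 10.12 and 7.37 with p21 knocked out, and 10.88 and 11.07 against 8.30 and 5.70 with p53 knocked out, and its difference without p53 was -3.97 ± 0.88 (adjusted p = 0.0173). It was low on both CKIα KO/p53 KO arrays, which also differed from each other, and on CKIα KO/p21 KO replicate 2. With all arrays this was the lowest value of the 48 genes, but it was -2.67 without CKIα KO/p53 KO replicate 2 (adjusted p = 0.0997), where Cyp3a25, Cyp2c66, Ugt2b36, Ces2a and Aldh1a1 were lower, and -5.27 without replicate 1 (adjusted p = 0.0210). Maoa read 11.33 and 11.41 against 10.71 and 10.75, then 11.15 and 11.08 against 10.90 and 8.78 with p21 knocked out, and 11.55 and 11.49 against 8.87 and 8.57 with p53 knocked out, and fell 6.99-fold without p53 (-2.81 ± 0.50, adjusted p = 0.00961). For Maoa too, CKIα KO/p21 KO replicate 2 lay near the CKIα KO/p53 KO arrays.

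Aldh1a1, which oxidizes retinal and other aldehydes, read 11.70 and 11.51 against 9.35 and 10.58, then 10.76 and 10.01 against 10.41 and 10.03 with p21 knocked out, and 11.91 and 11.20 against 8.88 and 8.50 with p53 knocked out. Both CKIα KO/p53 KO arrays were the lowest of the 12. The difference without p53 (-2.87 ± 0.40, adjusted p = 0.00727) passed in 11 of the 12 fits that each left out an array, the exception being the fit without CKIα Het/p53 KO replicate 1. Adh4, an alcohol dehydrogenase that also oxidizes retinol, read 9.26 and 8.62 against 8.37 and 8.82, then 7.04 and 6.41 against 6.78 and 4.98 with p21 knocked out, and 9.87 and 9.55 against 7.41 and 6.28 with p53 knocked out, and fell 7.26-fold without p53 (adjusted p = 0.0115). The carbonyl reductase Cbr1 read 10.82 and 10.72 against 9.98 and 10.71, then 10.11 and 10.05 against 10.43 and 10.12 with p21 knocked out, and 11.12 and 10.69 against 9.97 and 10.06 with p53 knocked out, and fell 1.86-fold (adjusted p = 0.0296). Adh4 was low in both p21 KO groups as well, while Cbr1 kept to between 9.97 and 11.12 throughout. The flavin monooxygenase Fmo5 read 10.66 and 10.88 against 9.75 and 9.97, then 10.43 and 10.34 against 10.37 and 8.01 with p21 knocked out, and 10.62 and 10.99 against 9.28 and 8.57 with p53 knocked out, and just missed the threshold without p53 (-1.88 ± 0.58, adjusted p = 0.0502). Adh1, another alcohol dehydrogenase, was at -1.64 ± 0.79 (adjusted p = 0.172). Aldh1a3, a relative of Aldh1a1, lay between 4.78 and 5.48 on all 12 arrays.

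Of the 5 hydrolases, 4 fell without p53. Ces2a, a carboxylesterase that cleaves ester and amide drugs, read 10.35 and 11.06 against 8.80 and 9.40, then 9.75 and 9.14 against 9.59 and 8.27 with p21 knocked out, and 10.83 and 10.26 against 7.72 and 7.73 with p53 knocked out, and fell 7.07-fold without p53 (-2.82 ± 0.42, adjusted p = 0.00763). The lowest levels were those of CKIα KO/p53 KO, and the fall passed in every fit that left out an array but the one without CKIα Het/p53 KO replicate 1. Ces1d read 6.85 and 6.32 against 4.78 and 4.85, then 4.74 and 4.34 against 4.36 and 3.62 with p21 knocked out, and 6.75 and 5.30 against 3.81 and 3.28 with p53 knocked out, and fell 5.57-fold (adjusted p = 0.00913). Ces2e read 12.35 and 12.38 against 11.97 and 11.90, then 12.002 and 12.006 against 12.21 and 11.37 with p21 knocked out, and 12.45 and 12.32 against 11.12 and 10.64 with p53 knocked out, and fell 2.84-fold (adjusted p = 0.00803). Both carboxylesterases were lowest on the CKIα KO/p53 KO arrays, apart from Ces1d on CKIα KO/p21 KO replicate 2. These low levels of Ces1d lay near or under the 25th percentile of the arrays (3.59 to 3.73), so the size of its fall is uncertain. Ephx2, the soluble epoxide hydrolase that turns fatty acid epoxides into diols, read 11.25 and 11.48 against 10.31 and 10.70, then 10.68 and 10.77 against 11.05 and 9.04 with p21 knocked out, and 11.26 and 11.31 against 9.70 and 8.82 with p53 knocked out, and fell 4.08-fold (adjusted p = 0.0272). Ces1f, at -1.35 ± 0.51, did not pass (adjusted p = 0.0896).

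Of the 15 conjugating enzymes, 7 fell without p53. Ugt2b36, which attaches glucuronic acid, read 6.28 and 6.50 against 5.19 and 4.70, then 5.88 and 5.29 against 4.92 and 3.57 with p21 knocked out, and 7.35 and 6.06 against 3.72 and 3.83 with p53 knocked out, and fell 7.63-fold (-2.93 ± 0.47, adjusted p = 0.00789). All 6 CKIα KO arrays lay below all 6 CKIα Het arrays. The related Ugt2b34 read 11.70 and 11.98 against 11.55 and 11.57, then 11.43 and 11.22 against 11.61 and 10.98 with p21 knocked out, and 12.14 and 11.89 against 11.42 and 11.06 with p53 knocked out, and fell 1.71-fold (adjusted p = 0.0389). The sulfotransferase Sult2b1, which acts on cholesterol and other sterols, read 9.22 and 9.62 against 9.25 and 9.50, then 9.43 and 9.55 against 9.32 and 8.28 with p21 knocked out, and 9.89 and 9.92 against 8.93 and 8.54 with p53 knocked out, and fell 2.25-fold (adjusted p = 0.0264). With both genes present the arrays of Sult2b1 overlapped.

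Glutathione transferases, which couple glutathione to reactive compounds, fell in 4 cases. Gstm3 read 11.98 and 12.02 against 10.74 and 11.34, then 10.32 and 9.83 against 10.50 and 9.52 with p21 knocked out, and 12.34 and 11.56 against 10.01 and 9.32 with p53 knocked out, and fell 4.88-fold without p53 (adjusted p = 0.00845). Gstm3 had 2 probe sets of its own, of which the brighter is given, and its fall also passed with their mean. Gstk1, a mitochondrial and peroxisomal form, read 9.71 and 9.17 against 7.96 and 8.55, then 7.92 and 7.30 against 8.29 and 7.31 with p21 knocked out, and 9.34 and 9.35 against 7.67 and 6.92 with p53 knocked out, and fell 4.14-fold (adjusted p = 0.0103). Both were also low in CKIα Het/p21 KO. The membrane-bound Mgst2 read 10.59 and 10.28 against 9.98 and 9.98, then 10.12 and 9.63 against 9.98 and 9.34 with p21 knocked out, and 10.53 and 9.98 against 9.20 and 9.21 with p53 knocked out, and fell 2.07-fold (adjusted p = 0.0238), and Mgst3 read 8.65 and 8.63 against 8.64 and 8.73, then 8.84 and 8.35 against 8.52 and 8.32 with p21 knocked out, and 9.13 and 9.03 against 8.32 and 8.19 with p53 knocked out, and fell 1.77-fold (adjusted p = 0.0140). Mgst3 moved in a narrow range, from 8.19 to 9.13. Their relative Mgst1 read 9.54 and 10.02 against 9.43 and 9.39, then 9.93 and 9.57 against 9.59 and 8.67 with p21 knocked out, and 9.55 and 9.73 against 8.67 and 9.22 with p53 knocked out, and did not pass without p53. The acetyltransferase Nat2 read 6.63 and 6.71 against 6.10 and 6.45, then 6.60 and 6.41 against 6.43 and 5.87 with p21 knocked out, and 6.88 and 6.70 against 6.21 and 6.14 with p53 knocked out, and did not pass there either. Gsto1, an omega-class transferase, read 9.75 and 9.90 against 9.74 and 10.51, then 9.51 and 9.20 against 9.83 and 9.87 with p21 knocked out, and 9.58 and 9.80 against 10.31 and 10.03 with p53 knocked out, and it and Tpmt, a methyltransferase of thiopurine drugs, had values above 0 without p53 (0.48 ± 0.24 and 0.67 ± 0.44).

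Of the 4 transporters, 1 fell without p53. Abcg2, which pumps drugs and dietary carcinogens back into the lumen, read 9.30 and 9.12 against 9.58 and 9.23, then 9.17 and 9.24 against 9.04 and 8.26 with p21 knocked out, and 9.92 and 9.24 against 8.59 and 8.74 with p53 knocked out, and fell 1.89-fold (adjusted p = 0.0466). The luminal pumps Abcb1a, known as P-glycoprotein, and Abcc2 were at -0.60 ± 0.50 and -0.91 ± 0.39, and did not pass. Abcc3, which exports conjugates across the basal side towards the blood, read 8.29 and 8.14 against 9.16 and 9.58, then 8.85 and 8.71 against 8.89 and 8.87 with p21 knocked out, and 8.62 and 8.62 against 8.97 and 9.22 with p53 knocked out. Every CKIα KO array of Abcc3 lay above every CKIα Het array.

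**Figure D3:**
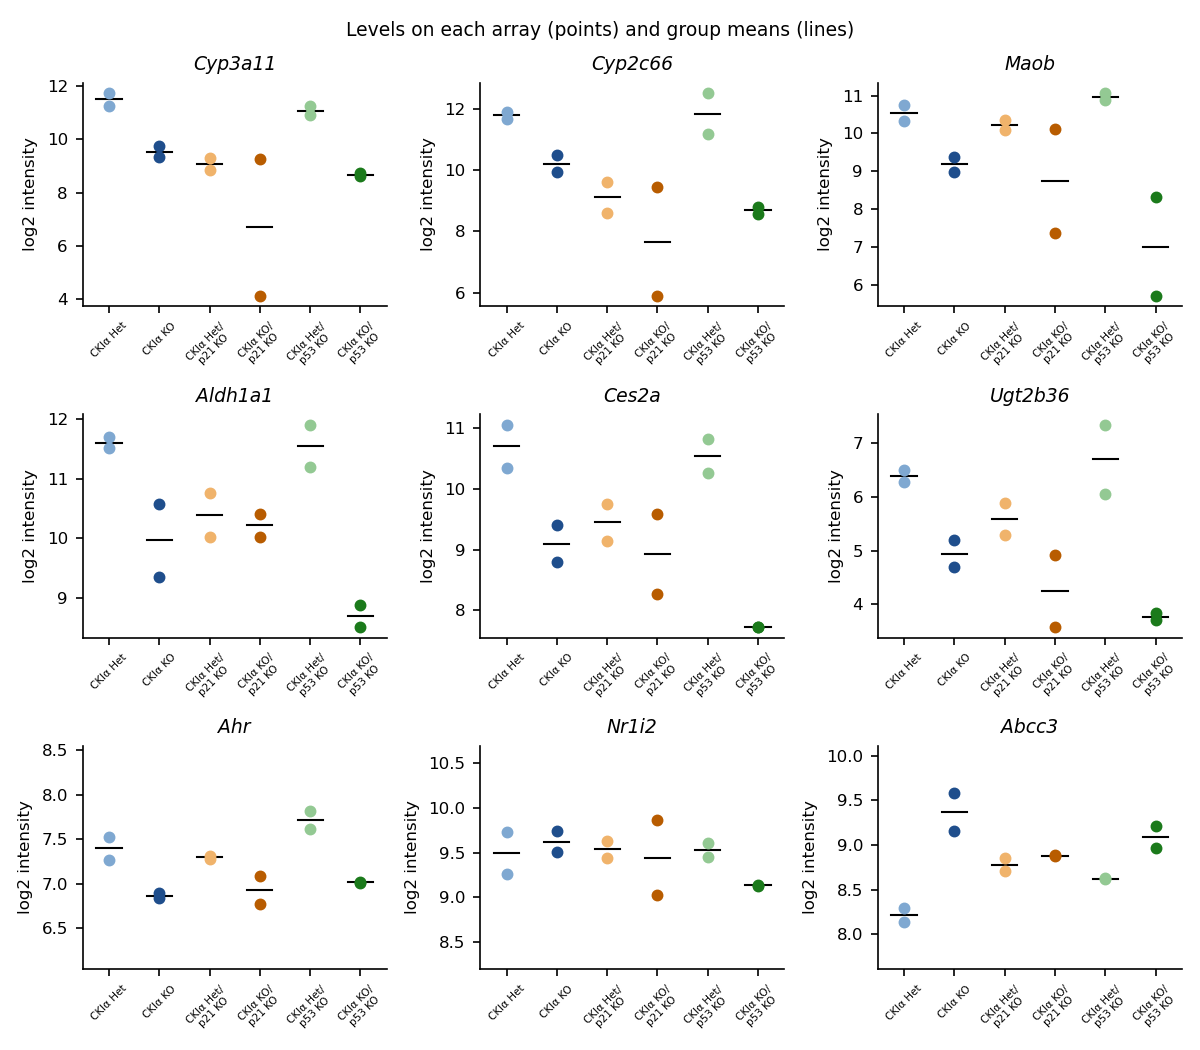
Log2 intensity (y axis, scaled separately for each gene) on each array (points) and the group mean (line) for 9 of the genes in the 6 groups. Cyp3a11 has its lowest point on a CKIα KO/p21 KO array, Aldh1a1 and Ces2a are lowest on both CKIα KO/p53 KO arrays, and Abcc3 is the gene shown that is higher in each CKIα KO group.

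Because many of these genes fell together without p53, the 250 bases before their starts were searched for short motifs of factors that act on gut or xenobiotic genes. RefSeq promoters of GRCm38.p6 were at hand for 38 of the 48 genes, and for 18 of the 23 that fell. Of the 4 with a promoter and the largest fall, Aldh1a1 held none of the motifs, and the others are shown with each match in capitals.
Cyp2c66 (chr19:39113648-39113897, plus strand): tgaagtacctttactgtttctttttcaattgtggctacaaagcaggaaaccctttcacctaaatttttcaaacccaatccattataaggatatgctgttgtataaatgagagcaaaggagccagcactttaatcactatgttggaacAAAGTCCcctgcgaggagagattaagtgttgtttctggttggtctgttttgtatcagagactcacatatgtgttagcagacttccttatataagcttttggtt
Ugt2b36 (chr5:87092556-87092805, minus strand): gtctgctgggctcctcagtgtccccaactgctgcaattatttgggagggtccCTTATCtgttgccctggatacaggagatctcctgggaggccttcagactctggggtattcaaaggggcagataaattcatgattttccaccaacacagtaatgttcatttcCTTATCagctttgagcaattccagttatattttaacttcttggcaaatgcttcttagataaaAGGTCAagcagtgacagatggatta
Adh4 (chr3:138415247-138415496, plus strand): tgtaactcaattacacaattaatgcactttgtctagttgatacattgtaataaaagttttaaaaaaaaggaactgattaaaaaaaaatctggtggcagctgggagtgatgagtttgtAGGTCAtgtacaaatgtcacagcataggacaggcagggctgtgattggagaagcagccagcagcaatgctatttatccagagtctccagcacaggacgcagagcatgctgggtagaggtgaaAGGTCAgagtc
Cyp2c66 held AAAGTCC, a motif of the enterocyte factor HNF4A, from 103 to 97 bases before the start. Ugt2b36 held GATAAG, the motif of GATA factors, on the opposite strand (seen as CTTATC in the printed strand) from 198 to 193 and from 87 to 82 bases before the start, and AGGTCA, the half-site of nuclear receptors, from 25 to 20 bases before it. Adh4 held AGGTCA from 133 to 128 and from 11 to 6 bases before the start. Counting both strands and 1 promoter per gene, AGGTCA was in 5 of the 18 promoters of genes that fell, in 4 of the 20 of the remaining genes and in 13.8% of the 27025 genes with a promoter. GATAAG was in 3 of 18, in 3 of 20 and in 6.6% of all, and AAAGTCC in 1 of 18, in 2 of 20 and in 3.65% of all. GCGTG, the core bound by Ahr with its partner, was in 4 of 18, 4 of 20 and 28.2%. ATCAAAG, bound by the TCF/LEF partners of β-catenin, was in 0 of 18, 0 of 20 and 3.23%. CATAAA, a motif of CDX2, was in 0 of 18, 3 of 20 and 11.1%, and TGACNNNGC, bound by NRF2 with MAF proteins, was in 0 of 18, 2 of 20 and 10.1%. The searched letters do not overlap each other in these 3 sequences. A match is a run of letters and not a shown binding site.

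With p53 and p21 present, loss of CKIα gave differences that did not pass. By limma 0 of the 48 genes were called, where 0% of all genes tested were called lower and 0.0239% higher. Before adjustment, at p under 0.05, 10 were lower and 1 was higher (3.52% and 5.57% of all genes). Both CKIα KO arrays lay below both CKIα Het arrays for 30 of the 48 genes, a pattern of 16.8% of all genes, and above both for 1, a pattern of 22.3%. The median was -0.47, against 0.02 over all genes tested. Cyp3a11 was at -1.97 ± 1.18 (adjusted p = 0.681), Cyp2b10 at -1.88 ± 0.98 and Aldh1a1 at -1.64 ± 0.40 (adjusted p = 0.237), while Abcc3 was at 1.16 ± 0.16 (adjusted p = 0.0803). Without either CKIα KO/p21 KO array, which then adds nothing to the pooled spread, Cyp3a11, Cyp2b10 and Abcc3 passed (adjusted p = 0.0114, 0.0426 and 0.0252). Abcc3 also passed without CKIα KO replicate 1 (adjusted p = 0.0160).

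With p21 knocked out, 0 of the 48 genes were called by limma, where 0.514% of all genes tested were called lower and 1.46% higher. At an unadjusted p under 0.05, 7 were lower and 1 was higher (9.2% and 14% of all genes). Both CKIα KO/p21 KO arrays lay below both CKIα Het/p21 KO arrays for 8 of the 48 genes and above both for 6, patterns of 24.3% and 26.9% of all genes. The CKIα KO/p21 KO arrays parted: their mean over the 48 genes was 9.26 on replicate 1 and 7.91 on replicate 2, beside 9.21 and 8.97 in CKIα Het/p21 KO. Cyp2s1 was at -1.36 ± 0.37 (adjusted p = 0.0738), and Gsta4, a glutathione transferase for products of lipid peroxidation, at 0.90 ± 0.36 (adjusted p = 0.171). Cyp3a11 was at -2.37 ± 1.18 (adjusted p = 0.265) with both arrays and at 0.20 without replicate 2, so its direction rested on that array. Calls among the 48 genes were made without CKIα KO/p21 KO replicate 1 but not without replicate 2. The share of all genes called in those fits is not given here.

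Averaged with equal weight over the 3 backgrounds, loss of CKIα lowered 26 of the 48 genes and raised 2 (8.96% and 15.5% of all genes tested). Before adjustment, at p under 0.05, 36 were lower and 2 were higher (16.1% and 21.8% of all genes). Of the 28 called, 19 were also among the 23 that fell without p53, arrays that are part of this average. Values of Cyp3a11 (-2.25 ± 0.68, adjusted p = 0.0387), Cyp3a25 (-1.94 ± 0.61) and Cyp2b10 (-1.90 ± 0.56) passed here, and in the fits that left out an array each passed only without either CKIα KO/p21 KO array. Ahr fell (-0.53 ± 0.09, adjusted p = 0.00366), as did Maoa, Cyp2s1 and Ugt2b36, and in these 4 genes every CKIα KO array lay below every CKIα Het array, a pattern of 1.96% of all genes. The reverse held for Abcc3 alone of the 48, and for 3.74% of all genes. The pair that rose was Abcc3 (0.58 ± 0.09, adjusted p = 0.00373) and Gsto1 (0.43 ± 0.14, adjusted p = 0.0457). In the fits that left out an array, Gsto1 passed in 1 of 12, the one without CKIα KO replicate 1. The number called moved when single arrays were left out. It was lowest without CKIα Het/p53 KO replicate 1 and highest without CKIα KO/p21 KO replicate 1, with no share of all genes given here. Some of the 28 were called in all 12 such fits. These included Maob, Maoa, Aldh1a1, Ces2a, Ces1d, Ugt2b36, Ahr and Abcc3. Of the 48 genes, 33 were below 0 in all 3 backgrounds, as were 25.2% of all genes tested.

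Whether the effect of CKIα loss depended on p53 was tested as an interaction. By limma 0 of the 48 genes passed, where 0.00598% of all genes tested passed with a lower value without p53 and 0.012% with a higher one. At an unadjusted p under 0.05, 9 were lower and 0 higher (6.9% and 7.97% of all genes). Adh4 was at -2.52 ± 0.77 (adjusted p = 0.252), Maoa at -2.17 ± 0.70 (adjusted p = 0.257) and Maob at -2.62 ± 1.24 (adjusted p = 0.359). A larger fall without p53 was thus not shown for these genes, although Maoa passed without either CKIα KO/p21 KO array (adjusted p = 0.0042). For p21, 0 of the 48 interactions passed, where 0% of all genes tested did, and at an unadjusted p under 0.05 1 was lower and 4 were higher (3.79% and 4.34% of all genes). Without CKIα KO/p21 KO replicate 1, Cyp3a11, Adh1 and Maoa passed there.

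Between the CKIα KO groups, loss of p53 gave 0 calls among the 48 genes by limma, where 0.227% of all genes tested were called lower and 0.466% higher. Before adjustment, at p under 0.05, 17 were lower in CKIα KO/p53 KO and 0 higher (9.43% and 12.9% of all genes). Both CKIα KO/p53 KO arrays lay below both CKIα KO arrays for 30 of the 48 and above both for 1, patterns of 25.8% and 23.8% of all genes. Maoa was at -2.01 ± 0.50 (adjusted p = 0.0680) and Maob at -2.19 ± 0.88. Without either CKIα KO/p21 KO array, which then adds nothing to the pooled spread, some of the 48 were called, Maoa among them at an unchanged -2.01. The share of all genes called in those fits is not given here. Loss of p21 in CKIα KO gave 0 calls (0.012% of all genes tested lower and 0.0239% higher). At an unadjusted p under 0.05, 9 were lower and 0 higher (4.79% and 7.2% of all genes), with Cyp3a11 at -2.83 ± 1.18 and Cyp2c55 at -2.77 ± 1.09. Both CKIα KO/p21 KO arrays lay below both CKIα KO arrays for 10 of the 48 and above both for 0, patterns of 20.6% and 16.2% of all genes. Some of the 48 were called without CKIα KO/p21 KO replicate 1 but not without replicate 2, again with no share of all genes at hand. These comparisons share the CKIα KO arrays with each other and with those above.

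In the CKIα Het gut, many of these genes read lower on both arrays with p21 knocked out. Neither loss of p21 nor loss of p53 gave a call among the 48 genes by limma (0.00598% of all genes tested were called higher and 0% lower for p21, and 0% for p53). Before adjustment, at p under 0.05, 13 were lower and 1 was higher for p21 (2.49% and 2.51% of all genes), and 0 were lower and 2 higher for p53 (2.3% and 3.33%). Both CKIα Het/p21 KO arrays lay below both CKIα Het arrays for 33 of the 48 genes and above both for 1, patterns of 20.5% and 15.9% of all genes, and the median was -0.58, against -0.02 over all genes tested. With p53 knocked out, both arrays lay below for 2 of the 48 and above for 9, patterns of 16.9% and 24.8% of all genes, with a median of 0.03. The glutathione transferase Gstm1 had 10.22 and 10.16 in CKIα Het and 8.24 and 7.66 in CKIα Het/p21 KO (-2.24 ± 0.45, adjusted p = 0.379). Gstm3 (-1.93 ± 0.38), Gstk1 (-1.83 ± 0.38), Ces1d (-2.05 ± 0.43), Adh4 (-2.21 ± 0.55) and Cyp2c66 (-2.67 ± 0.90) were at values of like size that did not pass. Cyp3a11, at -2.43 ± 1.18, passed without either CKIα KO/p21 KO array (adjusted p = 0.0135). By role, the genes for which both arrays lay lower with p21 knocked out were 9 of 13 P450 enzymes, 5 of 5 hydrolases, 12 of 15 conjugating enzymes, 6 of 8 other oxidoreductases, 1 of 3 receptors and 0 of 4 transporters. In the same comparison the median of the absorptive enterocyte markers was -0.00, and that of the fibroblast and smooth muscle markers was 0.78 (mean level 5.10 to 5.43 in CKIα Het and 5.55 to 6.48 in CKIα Het/p21 KO), with 0 of either list called by limma. The part of these other cells in the values was not tested.

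Other genes of the same pathway, from a list of 144, were described in the same way. Of 118 that could be tested, 40 fell and 9 rose without p53, where 6.82% of all genes tested fell and 11% rose, with a median of -0.50. Lower were 6 of 13 further hydrolases, among them Bche, butyrylcholinesterase (log2 fold change -4.39), Ces1e (7.10-fold) and Ces1g, and 8 of 28 conjugating enzymes, among them Ugt2b5 (6.75-fold), Ugt2b35, the arsenic methyltransferase As3mt and Gstm2. Of 46 further oxidoreductases 16 fell, including the aldo-keto reductase Akr1c19 (9.74-fold) and Cyp2c67, and 3 rose, including Cyp1b1 (5.75-fold) and Cyp20a1. Of 12 receptors and co-regulators 4 fell and 0 rose, namely the glucocorticoid receptor Nr3c1, the retinoid partner receptor Rxra, the vitamin D receptor Vdr and the antioxidant regulator Nfe2l2. Of 19 transporters 6 fell and 4 rose, the latter including the conjugate pumps Abcc1 (5.12-fold) and Abcc4 (2.78-fold). With p21 knocked out, where 0 of the 48 genes passed, the pumps Abcb1b and Abcc4 and the microsomal epoxide hydrolase Ephx1 rose (3.14-fold, 3.22-fold and 9.28-fold), and Dhrs3 and Papss1 fell (1.46% of all genes tested rose and 0.514% fell). With both genes present 0 of the 118 passed. In the interaction with p53, 1 of the 118 passed with a higher value and 0 with a lower one (0.012% and 0.00598% of all genes). Between the CKIα KO groups, 2 of the 118 rose and 2 fell on loss of p53 (0.466% and 0.227% of all genes).

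Levels of cell type markers moved beside these genes. Of the 23 absorptive enterocyte markers, 11 fell and 0 rose without p53, with a median of -0.68, and their mean level was 12.06 to 12.13 in CKIα Het/p53 KO and 10.60 to 10.96 in CKIα KO/p53 KO. On CKIα KO/p21 KO it was 11.84 on replicate 1 and 10.75 on replicate 2, as the 48 genes also parted there. Proliferation genes moved the other way, with 9 of 9 higher without p53 and a mean level of 7.28 to 7.55 in CKIα Het/p53 KO and 8.54 to 8.69 in CKIα KO/p53 KO. Of the goblet cell markers 4 of 7 fell and of the enteroendocrine markers 7 of 9. Of the crypt base stem cell markers 4 of 8 rose and 0 fell, with a median of 1.42. Of the proximal small intestine markers 2 of 5 rose without p53 and 3 of 5 in the average over backgrounds, with 0 lower in either. Their mean level was 7.10 to 7.78 on the 6 CKIα Het arrays and 7.96 to 9.21 on the 6 CKIα KO arrays. Of the distal small intestine markers 1 of 3 fell without p53 and 0 rose (mean level 9.74 to 10.85 in CKIα Het/p53 KO and 8.39 to 9.56 in CKIα KO/p53 KO). In the average over backgrounds 1 was higher and 1 lower. With both genes present their mean level was 9.14 to 9.61 in CKIα Het and 10.26 to 10.27 in CKIα KO, with 0 called. With p21 knocked out the levels overlapped. Of 8 lymphocyte markers 0 passed (mean level 7.33 to 8.56 and 7.15 to 8.55). Hepatocyte markers, of the organ best known for these enzymes, had a mean between 5.23 and 5.50 on all 12 arrays, with 0 of the 3 that could be tested passing. That mean joins dim and bright markers. Of the 5 measured, between 1 and 3 were under the 25th percentile on each array. The log2 of their summed intensity was 10.83 to 11.88. The part of these cell types and gut segments in the fall of the xenobiotic genes was not tested.

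**Figure D4:**
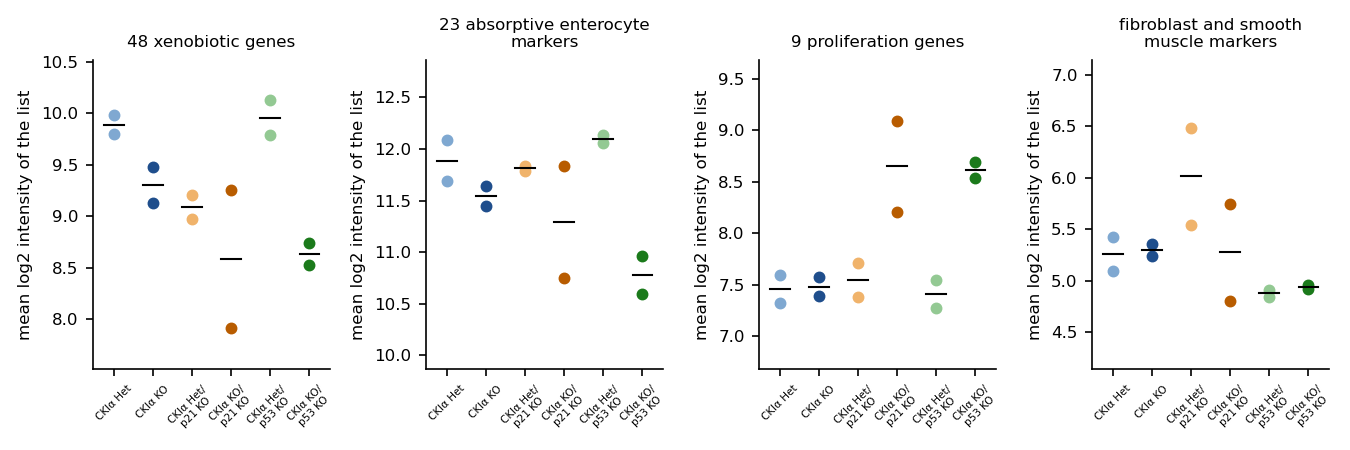
Mean log2 intensity (y axes of equal length, 3 log2 units) on each array (points) and the group mean (line) of the 48 xenobiotic genes, 23 absorptive enterocyte markers, 9 proliferation genes and the measured fibroblast and smooth muscle markers. The xenobiotic genes have their lowest array, at 7.91, in CKIα KO/p21 KO, where the enterocyte markers are at 10.75 and the proliferation genes at 9.09.

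Over all 48 genes, the group with the highest mean was CKIα Het/p53 KO for 23 and CKIα Het for 18, and the group with the lowest was CKIα KO/p53 KO for 22 and CKIα KO/p21 KO for 17. The replicate number in the titles, which divides every group, gave 0 calls among the 48 genes and 4 among all genes (0.0239%) when fitted beside the groups, with 6 of the 48 (12.5%) and 4.86% of all genes tested at an unadjusted p under 0.05. The 4 were the X-inactivation RNA Xist and Eif2s3y, Kdm5d and Uty, which lie on the Y chromosome. Xist lay between 3.15 and 3.94 on replicate 1 and between 8.91 and 10.1 on replicate 2 arrays, and the labels do not give sex. Eif2s3y went the other way, at 8.3 to 8.8 on replicate 1 and 3.1 to 3.7 on replicate 2 arrays. In these genes every replicate 1 array thus had a male pattern and every replicate 2 array a female one. Replicate number and sex cannot be told apart here. Of the 48 genes, Ces1d had the smallest p for this term (-0.60 ± 0.17, replicate 2 minus replicate 1, adjusted p = 0.951).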

How the data were processed

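RNA of enterocytes was hybridized to 13 Affymetrix arrays. Per the labels' protocols and the submitters' processing notes, the authors summarized probe sets by RMA in Affymetrix Expression Console 1.1 and then normalized the arrays by median intensity. The deposited values were taken as log2, a base inferred from their range. The array count limits the precision.

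Genes were named through the platform annotation where a probe set had 1 symbol (21789 probe sets, against 1621 with several and 12146 with none), and the brightest probe set was kept per gene. Genes above the 25th percentile of the array on at least 2 arrays were tested. Group means of 12 arrays were fitted with limma 3.58.1 in R 4.3.3 (6 residual degrees of freedom), and p-values were adjusted by the Benjamini-Hochberg method over 16721 genes within each of 10 comparisons. The code was tested on simulated data. Alternatives were no filter, a further quantile normalization, an intensity trend, a replicate block, the mean of probe sets, the unassigned array in either group, and leaving out each array.

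Members, gene lists and comparisons were chosen with earlier results of these data known. Every array is printed for genes called in any comparison and for receptors, and up to 4 genes per further list by smallest p. Promoters are RefSeq's of GRCm38.p6, matched by symbol, and the first start listed was used.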

Additional observations from a re-analysis of the deposited data

Results flagged for a closer look

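For 3 genes, all CKIα KO arrays moved opposite ways in different backgrounds. For the glutathione transferase Gstm1 the log2 fold change on loss of CKIα was -1.20 with both genes present, and it was 0.56 without p21 and -1.23 without p53. The tests of the differences gave limma adjusted p = 0.615 for p21 knocked out against both present, 0.989 for p53 knocked out against both present and 0.499 between the knockouts. For Gsta4, which acts on products of lipid peroxidation, it was 0.90 without p21 and -0.82 without p53, and their difference had an adjusted p of 0.421. For the carbonyl reductase Cbr1 it was -0.43 with both present, 0.19 without p21 and -0.89 without p53, and the differences had adjusted p = 0.652 for p21 knocked out against both present and 0.439 between the knockouts. None of these differences passed the test. The comparison between the knockouts was added after seeing the data.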

How the results depend on the processing

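Without p53, all 23 genes that fell kept their direction in the 19 other settings. In the 7 settings that kept all arrays, 17 of them passed throughout. In the 12 fits that each left out an array, 0 passed throughout, and the number called ranged from 0 to 33. For the average over backgrounds this range was 16 to 37, for loss of CKIα with both genes present 0 to 3, and with p21 knocked out 0 to 21. For the interactions it was 0 to 1 with p53 and 0 to 3 with p21. For loss of p53 and of p21 in CKIα KO it was 0 to 11 and 0 to 18, and in CKIα Het 0 to 0 and 0 to 1. Each such fit leaves 1 array in a group, which is assumed to vary like the others. By Xist and the Y-linked genes that group then has 1 sex pattern, while the other groups have both. Loss of CKIα with p21 knocked out changed direction for Cyp3a11, from -4.94 without CKIα KO/p21 KO replicate 1 to 0.20 without replicate 2. With the unassigned array counted as CKIα KO, 1 gene (Abcc3) passed with both genes present. With the replicate number as a block, 1 gene (Cyp2s1) passed with p21 knocked out and 1 (Ces2e) for loss of p53 in CKIα KO. The numbers were not taken to pair the arrays: the labels give no shared animal or day, and deviations of same-numbered arrays correlated between -0.16 and 0.25 over 15 pairs of groups, with 5 over 0.1, although Xist and 3 Y-linked genes differed by number in every group.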

Other observations

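The unassigned array, with p53 in its title but not in its genotype label, was nearer to the CKIα KO mean for 33 of the 48 genes and nearer to the CKIα KO/p53 KO mean for 15. It lay within the range of the 2 CKIα KO arrays for 20 genes and within that of the 2 CKIα KO/p53 KO arrays for 10. It lay above both CKIα KO/p53 KO arrays for 29 of the 48 genes and below both CKIα KO arrays for 23. Of the 23 genes that fell without p53, a choice that favours low CKIα KO/p53 KO values, these counts were 17 and 10. The same counts were not made over all genes tested, so they cannot tell which genotype this array has. Its log2 level was 4.78 for Ces1d, 10.44 for Aldh1a1, 10.96 for Cyp2c66 and 7.91 for Maob.

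Several of these genes are neighbours in the RefSeq gene order. No protein-coding gene lies between Maoa and Maob on chromosome X, between Cyp3a11 and Cyp3a25 on chromosome 5, between Sult1b1 and Sult1d1 on chromosome 5, between Cyp2s1 and Cyp2b10 on chromosome 7, or between Cyp2c55, Cyp2c65 and Cyp2c66 on chromosome 19. Neighbours did not always share a call: without p53, Cyp2c66 fell while Cyp2c55 and Cyp2c65 did not pass, and Cyp2s1 fell while Cyp2b10 did not pass. Maoa and Maob both fell.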
